A study of Rattus norvegicus with 6 samples.

Results

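Krüppel-like factors (KLFs) are transcription factors that bind GC-rich and CACCC-type DNA elements through a cluster of zinc fingers near their carboxy terminus. They differ mainly in the rest of the protein. One class, which includes KLF2, KLF4, KLF6 and KLF7, mostly acts with coactivators, another (KLF3, KLF8 and KLF12) recruits the corepressor CtBP, and the last (KLF9, KLF10, KLF11, KLF13, KLF14 and KLF16) recruits Sin3 and histone deacetylases. In macrophages, KLF2 is known as a brake on inflammatory activation, KLF4 is linked to alternative activation, and KLF6 supports inflammatory gene expression.

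Described here are 9 of these genes, Klf2, Klf3, Klf4, Klf6, Klf7, Klf9, Klf10, Klf11 and Klf13, among 23139 genes listed in the count tables. They were chosen by gene name, with their levels and changes in the comparison described here already known, so that these values are a description and carry no p-value. All 9 passed the filter on low counts, and 8 other KLFs are listed beside them.

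The cells were primary microglia of Wistar rats, shaken off cultures of cortices taken at postnatal day 1 and purified with CD11b/c beads. All 6 cultures received lipopolysaccharide (LPS), a bacterial cell wall component that activates microglia, at 100 ng/mL. The 3 LPS/siponimod cultures were also given 50 µM siponimod, a modulator of sphingosine 1-phosphate receptors used in multiple sclerosis. It was dissolved in DMSO, and the 3 LPS cultures were given a similar amount of this solvent alone. No culture without LPS is among the libraries analysed here, so every change below is that of LPS/siponimod relative to LPS alone, and says nothing of what LPS itself did to these genes. Values are read counts per gene, also given as CPM, the count normalised to the size of its library. Libraries held between 38080379 and 46643859 counts, so that 1 count was worth 0.0215 to 0.0270 CPM.

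Markers of microglia were present in every library, with all 13 listed genes counted and summed levels of 9689, 8073 and 5601 CPM in LPS replicates 1, 2 and 3 and 4648, 5662 and 3520 CPM in LPS/siponimod replicates 1, 2 and 3. Csf1r, the receptor for the growth factor that microglia depend on, had the highest CPM of them over all 6 libraries (mean 1459, not corrected for gene length, as for all such rankings here), although with LPS/siponimod Cd68, a lysosomal gene of phagocytes, was higher (1076 against 811 CPM). Both libraries numbered 3 stood apart by genes of other brain cells. Olig1, which marks the oligodendrocyte lineage, had 1, 5 and 515 reads in the LPS libraries against 2, 3 and 17 in the LPS/siponimod ones, and the neuronal gene Map2 had 0, 3 and 162 against 1, 1 and 115. The fit was therefore repeated without these 2 libraries. In bulk RNA, fewer cells of a type and less RNA per cell cannot be told apart.

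Klf4 differed most among the 9 genes. LPS replicates 1, 2 and 3 held 313, 128 and 107 of its reads, and LPS/siponimod replicates 12766, 10577 and 9775. In CPM these were 8.44, 3.32 and 2.88 against 275, 237 and 238. Every LPS/siponimod library was far above every LPS library. The means were 4.88 ± 3.09 and 249.9 ± 21.4 CPM (SD, n = 3 each), a 51.2-fold difference (log2 fold change, FC, of 5.68 with a standard error, SE, of 0.50). Of all 11977 genes tested, 54 had a log2 FC at least as high, Klf4 included. Relative to the mean, the spread was larger with LPS, where replicate 1 had more than the other 2 libraries. Without LPS replicate 1 the log2 FC was 6.35. RefSeq also lists a Klf4 pseudogene, and how reads matching both were assigned is not given in the sources used here.

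Klf2, its close relative, went the other way. Its reads numbered 643, 901 and 425 in the LPS cultures against 36, 223 and 74 under LPS/siponimod. That is 17.3, 23.4 and 11.4 CPM against 0.774, 4.99 and 1.80 CPM, and the groups did not overlap. The level was 6.88-fold lower with LPS/siponimod (log2 FC -2.78, SE 0.69), and 132 of the genes tested had a log2 FC as low or lower. LPS/siponimod replicate 2 kept the most Klf2, and without it the log2 FC was -3.77. Within pairs of same-numbered libraries, the log2 change of Klf4 exceeded that of Klf2 by 9.42, 8.35 and 8.98 (mean 8.92 ± 0.54, SD, n = 3 pairs). The 2 genes thus moved in opposite directions in each pair, while Klf2 itself varied between pairs, with log2 changes of -4.40, -2.22 and -2.63.

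**Figure D1:**
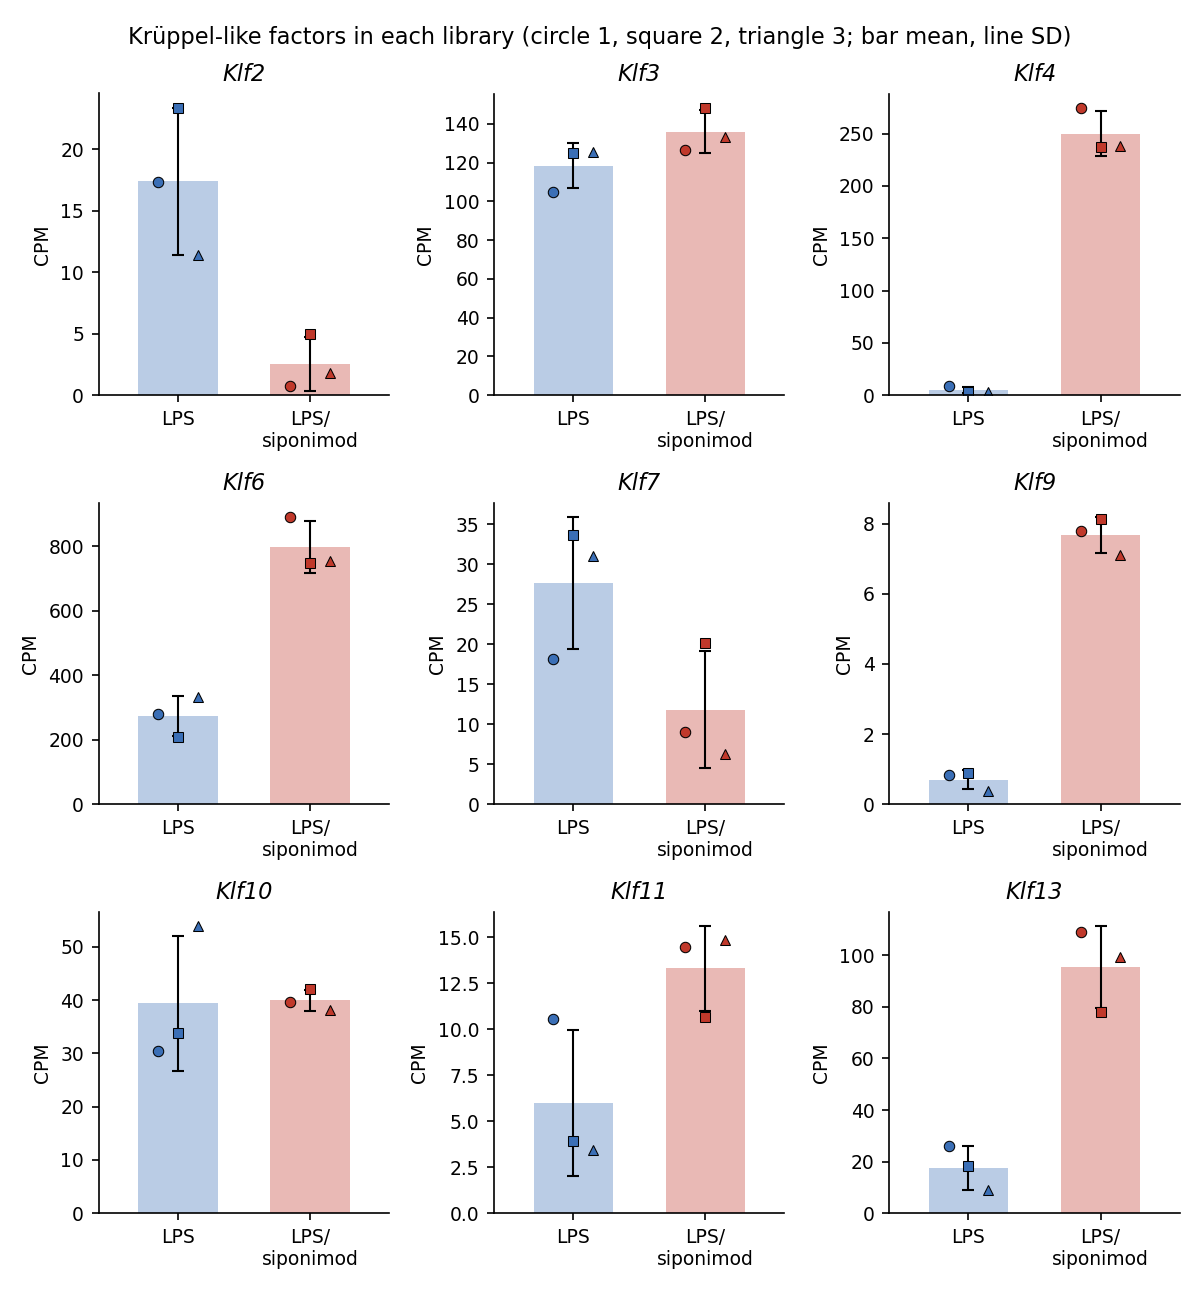
Levels of the 9 Krüppel-like factors in CPM (vertical axes, each from 0), with 1 point per library, the mean as a bar and the SD as a line (n = 3 per condition, blue LPS, red LPS/siponimod). The points of the 2 conditions are apart for Klf2, Klf3, Klf4, Klf6, Klf9, Klf11 and Klf13 and overlap for Klf7 and Klf10.

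Klf6, a widely expressed factor of the same class, had counts of 10355, 8053 and 12344 under LPS, against 41457, 33384 and 30928 under LPS/siponimod. The CPM values were 279, 209 and 332 against 892, 748 and 754. All LPS/siponimod libraries were higher, by 2.92-fold on average (log2 FC 1.54, SE 0.21). Klf7, known from axon growth and from fat cells, had 18.2, 33.7 and 31.0 CPM with LPS and 9.03, 20.2 and 6.29 CPM with LPS/siponimod. Its log2 FC was -1.22 (SE 0.47). The groups overlapped, since LPS/siponimod replicate 2 lay above LPS replicate 1, although the value was lower in each pair. Without LPS/siponimod replicate 2 the log2 FC was -1.85 and past the thresholds named below for all genes. The log2 change of Klf6 exceeded that of Klf7 by 2.68, 2.58 and 3.48 in pairs 1, 2 and 3. Of the 4 genes of the activator class, Klf4 and Klf6 were thus higher and Klf2 lower without overlap, while the groups overlapped for Klf7.

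Klf9, a gene known to be induced by glucocorticoids and thyroid hormone, had few reads with LPS (31, 34 and 14) against 362, 363 and 292 with LPS/siponimod. On the CPM scale this was 0.836, 0.882 and 0.377 against 7.79, 8.13 and 7.12. The LPS/siponimod libraries lay close together and all above the LPS libraries (10.9-fold, log2 FC 3.45, SE 0.37). Klf13, its nearest relative and an activator of the chemokine gene Ccl5 in T cells, had 25.9, 18.1 and 8.91 CPM with LPS and 109, 77.9 and 99.2 CPM with LPS/siponimod. The difference was 5.40-fold (log2 FC 2.43, SE 0.39), again without overlap. For both genes LPS replicate 3 was the lowest library and pair 3 gave the largest log2 change, 4.07 for Klf9 and 3.47 for Klf13.

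Klf10 and Klf11 are both known as early genes of the response to transforming growth factor-β (TGF-β). Klf10 had 30.4, 33.8 and 53.9 CPM with LPS and 39.6, 42.1 and 38.1 CPM with LPS/siponimod. The LPS/siponimod libraries lay within the range of the LPS libraries (log2 FC 0.02, SE 0.23). The sign was not stable, since pairs 1 and 2 gave changes of 0.38 and 0.32 and pair 3 gave -0.50. Klf11 had 10.5, 3.94 and 3.42 CPM with LPS and 14.5, 10.7 and 14.8 CPM with LPS/siponimod. The lowest LPS/siponimod library was just above LPS replicate 1, so that the groups did not overlap by a narrow margin (log2 FC 1.16, SE 0.46, and 1.87 without LPS replicate 1). Its log2 change exceeded that of Klf10 by 0.07, 1.11 and 2.60 in pairs 1, 2 and 3, a wide spread (SD 1.27). Klf3, the one CtBP-recruiting member, hardly moved, with 105, 125 and 126 CPM against 126, 148 and 133 CPM (log2 FC 0.20, SE 0.13). Its groups did not overlap either, though the gap between them was smaller than their spread.

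The 9 genes had a median log2 FC of 1.16, with 7 positive and 2 negative values, beside a median of -0.02 over all genes tested. Genes were called differentially expressed (DEGs) where the adjusted p did not exceed 0.05 and the fold change reached 1.5. By these thresholds 4 of the 9 were higher (Klf4, Klf6, Klf9 and Klf13) and 1 was lower (Klf2). Among all genes tested the shares were 13.6% and 11.7%, and 25.3% in either direction. CPM values of the 2 conditions did not overlap for 6 members that were higher and 1 that was lower, beside 25.3% and 24% of all genes. As the members were chosen with this comparison in view, nothing is read from these counts. With the replicate number as a block, 7 of the 9 were past the thresholds, Klf7 and Klf11 being added, where 34% of all genes were. DESeq2 gave the same 7, with 3898 of all 11977 genes tested past the thresholds. The likelihood ratio test added Klf7 alone, with 3570 of 11977 genes past them. Klf11 was also past the thresholds without LPS replicate 1, as were 1743 of 12562 genes in all. Without both libraries numbered 3 it was 4 of the 9, with 19.3% of all genes, Klf2 being the one lost. In that fit its log2 FC was -2.82 (SE 0.87), and those of Klf4, Klf6, Klf9 and Klf13 were 5.45, 1.75, 3.21 and 2.09. Klf7 and Klf11 had log2 FCs of -0.83 and 0.80 there, Klf3 0.26 and Klf10 0.35. The part of other brain cells in these values was not tested. With single libraries left out, Klf2 was below the thresholds without LPS replicate 1, LPS replicate 2, LPS/siponimod replicate 1 or LPS/siponimod replicate 3, that is in 4 of the 6 fits of that kind. Klf13 was below them without LPS replicate 2 or LPS/siponimod replicate 1.

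**Figure D2:**
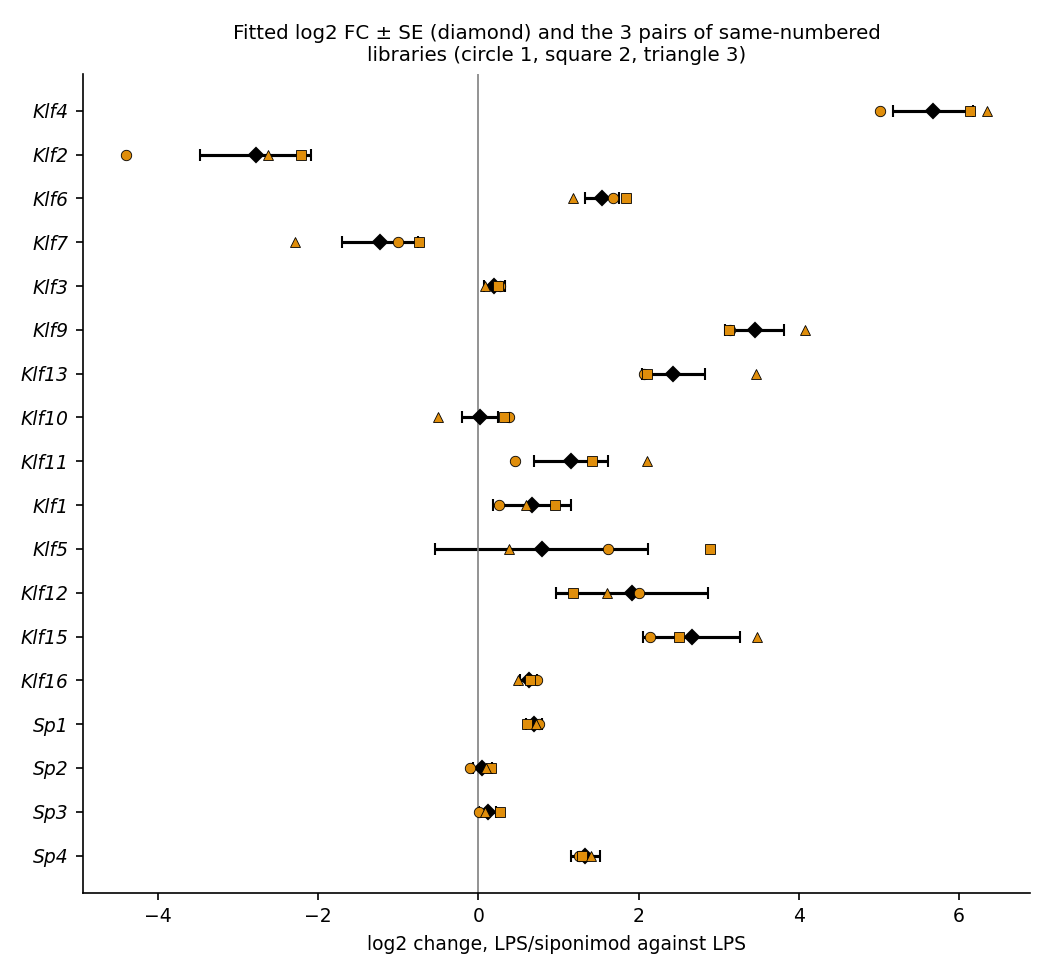
Log2 change of LPS/siponimod against LPS (horizontal axis) for the 9 members, 5 other Krüppel-like factors and 4 specificity proteins. Black diamonds are fitted log2 FCs with their SE, and orange symbols the 3 pairs of same-numbered libraries. All 3 pairs of the members lie above 0 for Klf3, Klf4, Klf6, Klf9, Klf11 and Klf13 and below 0 for Klf2 and Klf7.

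**Figure D3:**
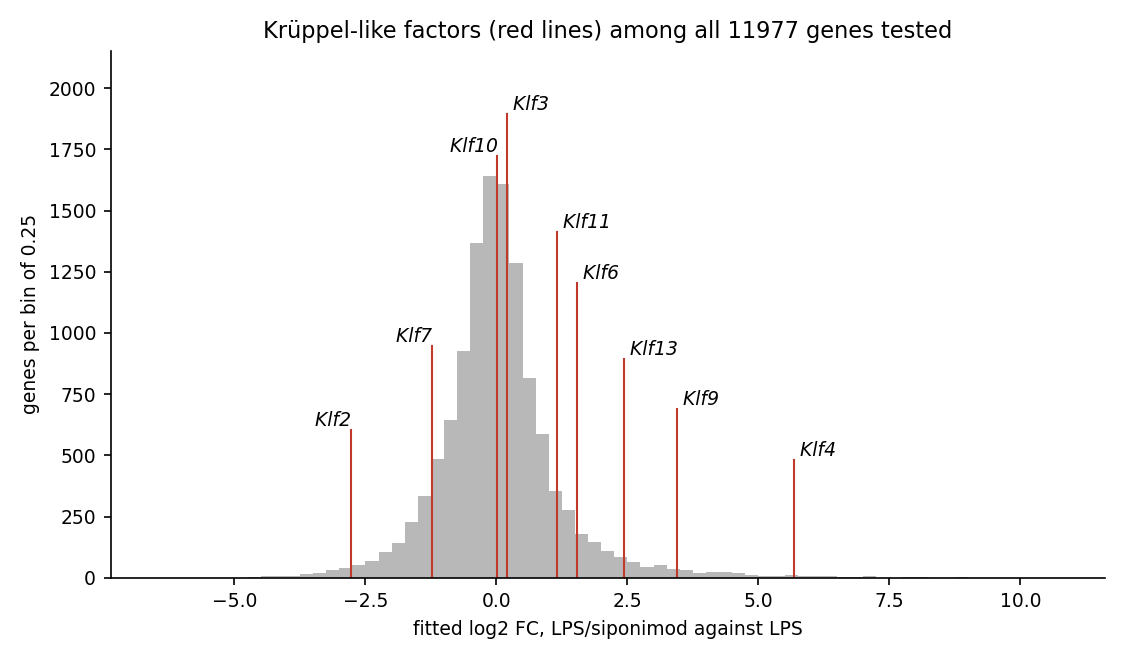
Number of genes (vertical axis) by fitted log2 FC (horizontal axis, bins of 0.25) for all 11977 genes tested, with a red line at each of the 9 members, whose height is set for legibility only. Klf3 and Klf10 lie in the centre of the distribution, and Klf4 lies in its far upper tail.

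Promoter windows were at hand for 6 of the 9 members, from RefSeq on the rat assembly GRCr8, which is not the assembly used for counting. For 2 of them, Klf6 and Klf9, the window ends at the outermost start of the gene record. For that reason only their 250 bases before that start are printed, whatever the direction of change. Both genes were higher with LPS/siponimod. Klf6 lies at chr17:69458479-69458728 on the minus strand and Klf9 at chr1:230126396-230126645 on the plus strand, and capitals mark the KLF-type box CACCC, the common promoter box CCAAT and the cAMP response element's core TGACG on either strand.
Klf6: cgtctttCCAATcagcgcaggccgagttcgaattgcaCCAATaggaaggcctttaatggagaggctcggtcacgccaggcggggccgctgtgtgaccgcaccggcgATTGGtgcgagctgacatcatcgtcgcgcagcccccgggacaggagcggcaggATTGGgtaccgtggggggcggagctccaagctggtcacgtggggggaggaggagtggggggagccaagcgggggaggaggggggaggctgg
Klf9: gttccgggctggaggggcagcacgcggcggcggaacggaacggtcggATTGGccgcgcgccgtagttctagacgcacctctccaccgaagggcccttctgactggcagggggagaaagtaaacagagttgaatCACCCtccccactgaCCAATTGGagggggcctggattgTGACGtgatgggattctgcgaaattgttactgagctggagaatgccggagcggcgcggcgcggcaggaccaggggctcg

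The Klf6 window held 4 matches to CCAAT and none to the KLF-type box or the cAMP core. It also held 1 match to the GC box GGGCGG, which 30.5% of windows hold and the Klf9 window did not. The Klf9 window held 3 matches to CCAAT, of which 2 overlap, 1 to the KLF-type box and 1 to the cAMP core. It also held 1 match to the AP-1 site TGANTCA, which 6.34% of windows hold and the Klf6 window did not. Of 33469 rat promoter windows of this length, 34% held CCAAT, 49.2% the KLF-type box and 18.2% the cAMP core. These letters are common, and a match is no evidence of a bound site. The full cAMP response element TGACGTCA (1.59% of windows) and the C/EBP-ATF element TGATGNAA (3.4%) were in neither.

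By distance between log2 CPM profiles over the 6 libraries, each centred on its own mean, the tested genes nearest to Klf4 were Pde1a, Flrt3, Nr4a3, Slc4a11 and Plxna4 (Euclidean distances from 0.773 to 1.27). Nr4a3, an orphan nuclear receptor of the immediate early type, had 11, 10 and 10 reads under LPS alone, against 871, 814 and 919 when siponimod was added. Flrt3, which encodes a membrane protein of cell adhesion, had 77, 37 and 39 against 6706, 3589 and 4567 counts. Like Klf4, both were higher in every LPS/siponimod library than in any LPS library. Plxna4, a semaphorin co-receptor gene, went from 4.29 ± 1.99 to 167 ± 49.2 CPM. For Klf2 the nearest genes were Nell2, P2ry6 and Ankrd13d (0.324, 0.684 and 0.748). P2ry6, a microglial receptor for UDP, had 342, 396 and 310 CPM with LPS and 23.2, 99.2 and 48.4 CPM with LPS/siponimod. Its highest LPS/siponimod library was replicate 2, as for Klf2. These likenesses follow from how the genes were chosen and describe 6 libraries only.

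The remaining KLFs were tested in the same fit. They and the lists further below were chosen with earlier results of these data known, which their adjusted p-values do not account for. Means below are given with their SD over 3 libraries. Of 8 listed, 5 had enough counts, and all 5 had a positive log2 FC. Klf15, a glucocorticoid-induced regulator of metabolism, rose from 37, 13 and 10 to 212, 96 and 144 counts (log2 FC 2.67, SE 0.61, edgeR quasi-likelihood adjusted p = 0.0249, and log2 FC 3.49 without LPS replicate 1). Klf16, of the Sin3-recruiting class, rose from 29.4 ± 1.87 to 45.4 ± 2.93 CPM (log2 FC 0.63, SE 0.11, edgeR adjusted p = 0.0131). Both genes separated the conditions completely. The others did not pass. Klf1, the erythroid KLF, had 13, 8 and 6 against 20, 20 and 11 counts (log2 FC 0.67, edgeR adjusted p = 0.324). Klf5, best known from epithelia, had 5, 3 and 91 against 24, 40 and 131 counts (log2 FC 0.79, edgeR adjusted p = 0.681). This value rested on single libraries, being 3.82 without LPS replicate 3, where it passed (edgeR adjusted p = 0.0441), and -0.32 without LPS/siponimod replicate 3. Without both libraries numbered 3 it was 2.70 and passed (edgeR adjusted p = 0.0458). Klf12 had 2, 2 and 11 against 17, 8 and 41 counts (log2 FC 1.92, edgeR adjusted p = 0.17), and with the replicate block it passed (log2 FC 1.99, edgeR adjusted p = 0.0325). Its log2 FC was 3.21 without LPS replicate 3 and 1.02 without LPS/siponimod replicate 3, and it passed in neither fit (edgeR adjusted p = 0.0598 and 0.485). For Klf5 and Klf12 the libraries numbered 3 were the highest of their condition, as for Olig1 and Map2, and the part of other cell types in these values was not tested. Klf8 had 2 counts in each library numbered 3 and none elsewhere, and Klf14 and Klf17 had no count in any library, which allows up to 0.0645 to 0.0809 CPM (3 counts), depending on the library.

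The specificity proteins, the closest relatives of KLFs with the same kind of zinc fingers, showed a narrower range. Sp1, the founding member, rose from 82.3 ± 2.28 to 133 ± 3.40 CPM (log2 FC 0.69, SE 0.10, edgeR adjusted p = 0.00896). Sp4 rose from 111, 112 and 118 to 336, 320 and 348 counts (log2 FC 1.33, SE 0.18, edgeR adjusted p = 0.00779). The replicates of each condition were close together for both. Sp2 and Sp3 did not pass, with log2 FCs of 0.05 and 0.12 (edgeR adjusted p = 0.781 and 0.437). Sp5, Sp6, Sp7, Sp8 and Sp9 had at most 8 counts in a library and were not tested.

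The counts of DEGs in the lists that follow stand beside 25.3% of all genes tested, and those with the replicate block beside 34%. Of 10 listed cofactors that KLFs recruit, 1 was a DEG, and 3 with the replicate block, which added Sap30 and Kat2b (lower). Hdac1, a histone deacetylase of the Sin3 complex, fell from 178 ± 50.9 to 79.5 ± 11.5 CPM (log2 FC -1.16, SE 0.23, edgeR adjusted p = 0.0183). The list's median log2 FC was -0.27. Sin3a itself had a log2 FC of 0.43 and Ctbp1, the partner of KLF3, one of -0.10, both under the fold threshold. Among 9 ubiquitin ligase genes known to act on KLF proteins, 2 rose and none fell (median -0.02). Fbxo32, whose product targets KLF4, rose from 124, 54 and 18 to 1090, 708 and 1649 counts (log2 FC 3.92, SE 0.75, edgeR adjusted p = 0.0158). Its log2 FC was 4.82 without LPS replicate 1 and 3.05 without both libraries numbered 3. Smurf1, whose product targets KLF2, rose with a log2 FC of 1.35 (SE 0.29, edgeR adjusted p = 0.0207). Wwp1, Fbxw7 and Vhl, which encode other such ligases, had log2 FCs of -0.15, -0.06 and -0.02.

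The kinase ERK5 and its target MEF2 are textbook inducers of both Klf2 and Klf4, and FOXO factors of Klf2. Of 9 genes on this list, 2 rose and none fell, with a median log2 FC of 0.48. With the replicate block Foxo3 was added among those that rose, and Mef2c as one that fell. Map3k2, a kinase at the top of the ERK5 cascade, rose from 357, 377 and 344 to 901, 766 and 831 counts (log2 FC 0.99, SE 0.13, edgeR adjusted p = 0.0078). Mef2d rose from 61.2 ± 14.1 to 107 ± 11.2 CPM (log2 FC 0.81, SE 0.20, edgeR adjusted p = 0.03). Mapk7, which encodes ERK5, and Mef2a had adjusted p-values under the threshold (edgeR adjusted p = 0.0468 and 0.0448) but log2 FCs of 0.52 and 0.48, below the fold threshold. Mapk7 passed without LPS replicate 3 (log2 FC 0.65, edgeR adjusted p = 0.0207). Mef2c had a log2 FC of -0.86 (edgeR adjusted p = 0.191), and of -1.42 without LPS/siponimod replicate 2, where it passed (edgeR adjusted p = 0.0466).

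In the TGF-β pathway, which feeds Klf10 and Klf11, 3 of 11 genes rose and 1 fell, and the median log2 FC was 0.08. Tgif1, a repressor of SMAD-driven transcription, rose from 1133, 560 and 705 to 6707, 4161 and 7051 counts (log2 FC 2.68, SE 0.36, edgeR adjusted p = 0.00779). Smad4, the common SMAD partner, rose by a log2 FC of 0.79 (SE 0.12, edgeR adjusted p = 0.0096) and Smad3 by 1.12 (SE 0.30, edgeR adjusted p = 0.039). Acvr1b, an activin receptor gene, fell by 0.99 on the log2 scale (SE 0.24, edgeR adjusted p = 0.0293). Tgfb1 and Smad7, a feedback inhibitor, were not DEGs (log2 FC -0.27 and 0.94), though Smad7 passed without LPS replicate 3 (log2 FC 1.51, edgeR adjusted p = 0.0306).

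Glucocorticoids induce Klf9 and Klf15. Of 7 listed genes of this response 6 were tested, 3 rose and none fell, with a median log2 FC of 0.58. Tsc22d3, known as glucocorticoid-induced leucine zipper, rose from 579, 492 and 318 to 2991, 1521 and 1577 counts (log2 FC 1.89, SE 0.33, edgeR adjusted p = 0.013). Sgk1 rose from 544 ± 163 to 1153 ± 111 CPM (log2 FC 1.08, SE 0.25, edgeR adjusted p = 0.0263). Nr3c1, the glucocorticoid receptor gene, rose by a log2 FC of 0.61 (SE 0.14, edgeR adjusted p = 0.0269). Fkbp5, a sensitive target of that receptor, did not move with them (log2 FC -0.09, edgeR adjusted p = 0.837).

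Genes known as targets of single KLFs went both ways. Of 22 listed, 16 were tested, 3 rose and 3 fell, and the median log2 FC was -0.30. S1pr1, a receptor that siponimod binds and a known target of KLF2 in T cells, rose from 218, 95 and 49 to 643, 918 and 1081 counts (log2 FC 2.65, SE 0.58, edgeR adjusted p = 0.0223), whereas Klf2 was lower. The log2 FC of S1pr1 was 3.43 without LPS replicate 1 and 2.05 without both libraries numbered 3. Thbd, which encodes thrombomodulin and responds to KLF2 and KLF4 in endothelium, rose from 8, 2 and 8 to 26, 29 and 64 counts (log2 FC 2.50, SE 0.70, edgeR adjusted p = 0.0414, and log2 FC 1.90 without LPS/siponimod replicate 3). Eng, a TGF-β co-receptor gene and a target of KLF6, rose from 282 ± 15.8 to 461 ± 76.9 CPM (log2 FC 0.71, SE 0.17, edgeR adjusted p = 0.0277). Mrc1, a mannose receptor gene of alternative activation, fell from 325 ± 45.2 to 60.9 ± 17.4 CPM while Klf4 was higher (log2 FC -2.41, SE 0.24, edgeR adjusted p = 0.0054). Itgb7 fell from 66, 99 and 80 to 7, 25 and 15 counts (log2 FC -2.59, SE 0.52, edgeR adjusted p = 0.0179). Ccl5, the chemokine gene that KLF13 activates in T cells, fell from 1921, 902 and 1009 to 582, 728 and 320 counts (log2 FC -1.48, SE 0.40, edgeR adjusted p = 0.0377), while Klf13 was higher. Cd14, which KLF4 is known to activate in macrophages, did not pass (log2 FC 0.22), nor did Cdkn1a, a target of KLF4 and KLF6 (log2 FC -0.97, edgeR adjusted p = 0.0898). Cdkn1a passed with DESeq2 (adjusted p = 0.0283), with edgeR's likelihood ratio test (adjusted p = 0.0416) and without LPS replicate 3 (log2 FC -1.20, edgeR adjusted p = 0.039).

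**Figure D4:**
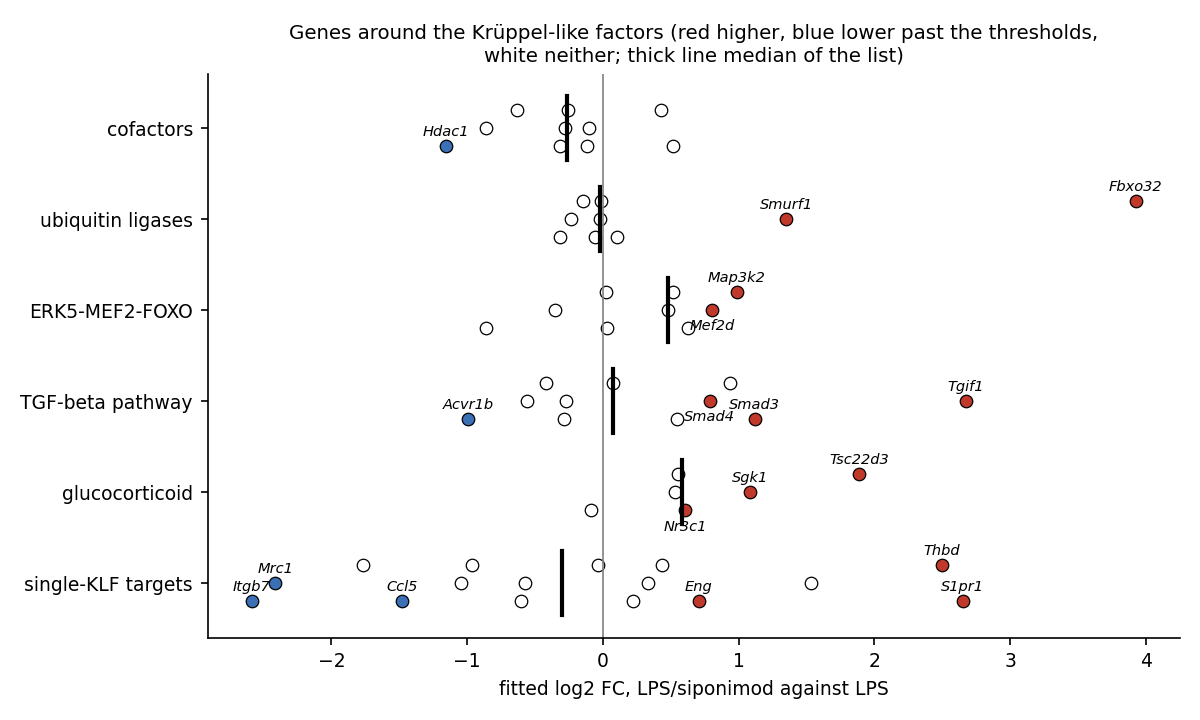
Fitted log2 FC of LPS/siponimod against LPS (horizontal axis) for the tested genes of 6 lists (rows), 1 point per gene, red and blue where past the DEG thresholds and white where not, with the median of each list as a thick line. Fbxo32, Tgif1, S1pr1 and Thbd lie farthest to the right, and Itgb7 and Mrc1 farthest to the left.

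Of the 22 DEGs outside the members, Sp1, Sp4, Map3k2, Tgif1 and Mrc1 stayed past the thresholds whichever of the 6 libraries was left out (largest edgeR adjusted p = 0.0485). The others depended on at least 1 library, and Smad3 and Thbd passed in none of these 6 fits. With LPS replicates 1, 2 or 3 left out, 15, 5 and 19 of the 22 remained, and with LPS/siponimod replicates 1, 2 or 3 left out, 7, 16 and 7. The largest edgeR adjusted p in these fits was 0.0531 for Smad4, 0.0621 for Tsc22d3, 0.0668 for Klf16, 0.0767 for Fbxo32, 0.0807 for Hdac1, 0.0821 for Smurf1, 0.0858 for Itgb7, 0.0916 for Sgk1 and 0.092 for Eng. It was 0.0975 for S1pr1, 0.108 for Klf15, 0.115 for Nr3c1, 0.123 for Mef2d, 0.125 for Acvr1b, 0.134 for Ccl5, 0.137 for Thbd and 0.141 for Smad3. Without both libraries numbered 3, 12 of the 22 remained, and Klf15 (edgeR adjusted p = 0.073) and S1pr1 (0.051) were among those that did not. With the replicate block all 22 remained and 9 more genes passed, among them Klf12, Foxo3 and Smad7 (log2 FC 0.68 and 1.02) and Mef2c, Ski, Kat2b and Sap30 (log2 FC -0.97, -0.59, -0.66 and -0.81). Lgals3, which encodes galectin-3 and is repressed by KLF3, also passed (log2 FC 1.69, edgeR adjusted p = 0.0131), and did so without LPS replicate 1 (edgeR adjusted p = 0.039), with DESeq2 and with the likelihood ratio test (adjusted p = 0.0095 and 0.0175).

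Klf2 and Klf4 are known for their roles in endothelium, and markers of other cells were counted for that reason. The 7 listed endothelial markers summed to 161, 205 and 85.1 CPM with LPS and 42.4, 82.9 and 31.4 CPM with LPS/siponimod, the most abundant being Cdh5 (mean 64.0 CPM), and none was a DEG. Kdr and Emcn, which define vascular endothelium, had no count in any library. The sum, which was mostly Cdh5 and Pecam1, was lower in every LPS/siponimod library, as Klf2 was. Members of the list went both ways, with log2 FCs of -2.39 for Pecam1, -1.36 for Cdh5 and -0.93 for Vwf but 0.93 for Tek and 0.40 for Tie1. The part of these cells in the change of Klf2 was not tested. Among the microglial markers 3 of 13 fell and none rose. Aif1, the gene of Iba1, fell from 877 ± 69.1 to 238 ± 135 CPM (log2 FC -1.88, SE 0.40, edgeR adjusted p = 0.0212), Itgam fell by 0.87 on the log2 scale (SE 0.14, edgeR adjusted p = 0.0112), and Cx3cr1 from 69, 202 and 35 to 3, 21 and 4 counts (edgeR adjusted p = 0.0392). Ptprc and Cd68 stayed level (log2 FC -0.02 and 0.00).

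For the remaining cell types the summed levels were low. Oligodendroglial markers summed to 5.34, 5.37 and 36.0 CPM with LPS and 11.4, 10.3 and 22.6 CPM with LPS/siponimod. Mbp was the most abundant gene over all 6 libraries, but Olig1 with LPS alone (4.67 against 3.49 CPM). That Olig1 mean rested on LPS replicate 3, with 0.0270, 0.130 and 13.9 CPM in LPS replicates 1, 2 and 3. Mbp had 4.02, 4.18 and 2.26 CPM in the same libraries. Mbp rose (log2 FC 1.74, SE 0.34, edgeR adjusted p = 0.0172). The lineage markers did not move with it, with 5, 4 and 284 against 1, 4 and 81 counts for Pdgfra and 1, 2 and 240 against 1, 3 and 40 for Olig2, and a log2 FC of -0.94 for Cspg4, which did not pass. Neuronal markers summed to 1.73, 1.04 and 11.3 against 4.39, 5.87 and 15.2 CPM (most abundant Tubb3), and astrocyte markers to 42.5, 21.0 and 21.7 against 27.5, 26.8 and 57.7 CPM (most abundant Slc1a3). Fibroblast and mural markers summed to 3.39 to 11.7 CPM, with Rgs5 and Kcnj8 at 0. Dcn was the most abundant over all 6 libraries but Col1a1 with LPS alone (2.81 CPM against 0.0628 for Dcn), and Dcn rose from 3, 0 and 4 to 456, 49 and 178 counts (edgeR adjusted p = 0.0155). Other genes of that list did not pass, with log2 FCs of -0.89 for Col1a1 (113, 115 and 89 against 62, 61 and 76 counts), -0.65 for Pdgfrb and 0.26 for Col1a2. Lymphocyte markers summed to 7.44 to 10.0 CPM, nearly all of it Lck, with Cd3e at 0. Granulocyte and monocyte markers summed to 0.301 to 4.57 CPM, with Mpo, Elane and Ccr2 at 0, and S100a8 fell from 70, 65 and 105 to 1, 12 and 10 counts (edgeR adjusted p = 0.0219). No summed level of another cell type was higher in every LPS/siponimod library than in every LPS library, as Klf4 was, whereas the endothelial, lymphocyte and granulocyte and monocyte sums were lower in all 3. The part of these cells in the changes of the KLFs was not tested.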

How the data were processed

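The authors deposited total read counts per gene for each of the 6 libraries, without normalization. They trimmed single-end reads and mapped them to mRatBN7.2 in the CLC Genomics Workbench, with bcl2fastq 2.20.0.422 used for conversion and demultiplexing, as the submitters' processing notes and the methods name them. How reads matching several genes, and strand, were handled is not given in the sources used here. One nameless row without a value was dropped.

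Counts were analysed with edgeR 4.0.16 (TMM scaling, filterByExpr at min.count 10 and min.total.count 15) in R 4.3.3. The quasi-likelihood test had the condition as its only term, with the Benjamini-Hochberg adjustment over 11977 genes. The SE is the log2 FC divided by the square root of F. Changes within pairs are differences of log2 CPM (prior count 2). With 3 libraries against 3, an exact permutation test of 1 gene cannot go below p = 0.1. Replicates are biological according to the methods.

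After centring on group means, same-numbered libraries correlated over genes (0.42, 0.545 and 0.611), differently numbered ones by at most 0.0856. The numbers were therefore taken as pairs on this evidence alone, and the replicate block was an alternative. Others were RLE, DESeq2 1.42.0, limma-voom (limma 3.58.1), the likelihood ratio test, both filters and each library left out. The members and lists were chosen with earlier results of these data known. Genes named are the members, all other KLFs and specificity proteins with a count, up to 3 DEGs per direction of each list, the most abundant marker and markers at 0 of each cell type, and the nearest profiles of Klf4 (5) and Klf2 (3). Other genes, among them Olig1, Map2, Aif1 and those given without passing, were chosen after their values were seen. Floors of 3 counts cover counting error only. Levels of different genes were compared only among markers of a cell type. Those rankings are in CPM without correction for gene length, since no transcript lengths were used. Calls among cell type markers were not repeated under the alternatives. Values of a few list genes are not reported here. Scripts were tested on simulated counts.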

Additional observations from a re-analysis of the deposited data

How the results depend on the processing

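RLE scaling, DESeq2, limma-voom, the likelihood ratio test, both other filters and the replicate block kept the sign of all 9 members and the numbers of DEGs within 1.5 times of 1633 higher and 1403 lower (2114 and 1960 with the replicate block, 1429 and 1113 with no filter). With single libraries left out, the numbers ranged from 469 to 1941 higher and from 182 to 1772 lower, and those in the fixed lists from 5 to 26 (22 with all libraries). The share of DEGs that were higher was 53.8% with all libraries and 72% without LPS replicate 2, 75.6% without LPS/siponimod replicate 1, 73.6% without LPS/siponimod replicate 3, 63.1% without LPS replicate 1, 52.3% without LPS replicate 3 and 50.5% without LPS/siponimod replicate 2. The replicate block ended no call among the members or the fixed lists. With single libraries left out, the median log2 FC of the 9 members ranged from 0.88 to 1.58. Single members moved by more than their spread only for Klf4 (6.35) and Klf11 (1.87) without LPS replicate 1 and for Klf10 (0.35) without both libraries numbered 3, a fit added after the data were seen. Klf10 changed sign with LPS replicate 1 (-0.12), LPS replicate 2 (-0.06) or LPS/siponimod replicate 2 (-0.02) left out. Members past the thresholds numbered 3 without LPS replicate 2 and without LPS/siponimod replicate 1 (Klf4, Klf6 and Klf9 in both). Among all genes tested, 651 of 12613 were past them without LPS replicate 2 and 783 of 12583 without LPS/siponimod replicate 1. Depth did not limit the members, all of which had at least 14 counts in every library. Thbd was lost with limma-voom and with both other filters, and Smad3 with no filter.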
